A study of Mus musculus with 9 samples.

Results

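Ms4a1, which encodes the B-cell surface protein CD20, was examined together with 8 genes that mark mature or precursor B-lineage cells. The 9 genes were Ms4a1, Cd79a, Cd79b, Pax5, Cd22, Cr2, Rag1, Vpreb1 and Igll1. They were taken by symbol from the 55291 genes of the table, with no filter on their values. The choice was made with earlier results of these data known. RNA-seq of the main olfactory epithelium was available for 9 mice aged 8 to 12 weeks, 3 in each of 3 genotypes, and the sex of the mice was not given. Wild-type mice were C57BL/6 by the labels and described as littermates of the knockouts. Ms4a6c knockout mice carried a deletion made by homologous recombination, and Ms4a cluster knockout mice lacked the Ms4a genes after a CRISPR/Cas9 deletion. The question was whether Ms4a1 transcripts in this tissue went with mature or with precursor B-lineage RNA.

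B cells arise in bone marrow, where Rag1 cuts the immunoglobulin genes and the products of Vpreb1 and Igll1 form the surrogate light chain of the pre-B-cell receptor. Pax5 is the transcription factor that holds cells to the B lineage, and Cd79a and Cd79b encode the signalling chains that carry both the pre-B-cell receptor and the mature receptor. Cd22, an inhibitory co-receptor, and Cr2, the complement receptor CD21, mark later stages, and CD20 itself appears late in precursor development and stays on mature B cells. In adult mice precursor B cells live mainly in bone marrow, whereas mature B cells circulate in blood and settle in many tissues.

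Ms4a1 lies at chr19:11249675-11266241 on the minus strand (GRCm38), inside the Ms4a cluster, and an antisense gene, 4930526L06Rik, overlaps its span but none of its exons. Cd79a (chr7:24897381-24902197) and Cd79b (chr11:106311341-106314762) had no overlapping gene, nor did Igll1 (chr16:16860671-16863985) or Cr2 (chr1:195136811-195176716). Exons of Pax5 (chr4:44524757-44710487), Cd22 (chr7:30865402-30880342) and Vpreb1 (chr16:16868403-16870843) overlap exons of genes on the other strand, and Rag1 (chr2:101638282-101649501) shares exonic sequence with B230118H07Rik on its own strand. The libraries were directional, but the strand setting of the counting was not given in the sources used here, so reads of these 4 genes are less certain.

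Vpreb1 has a near copy, Vpreb2, and the pair is shown because their reads can be divided between them. The coding sequences, 429 bases each, differed at 9 bases (97.9% identity), and 47 of the 280 windows of 150 bases in Vpreb1 also occurred in Vpreb2. The stretch of coding bases 298 to 387 holds 5 of the differences, which are given in capitals (GENCODE M21, coding strand).
Vpreb1: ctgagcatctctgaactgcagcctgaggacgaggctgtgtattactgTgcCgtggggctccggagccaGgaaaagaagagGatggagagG
Vpreb2: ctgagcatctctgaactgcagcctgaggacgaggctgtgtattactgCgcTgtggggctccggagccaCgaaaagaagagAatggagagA
Vpreb1 and Vpreb2 had fractional expected counts of 6.75 and 2.25 in Ms4a6c knockout 1. Vpreb2 was otherwise at 2 counts in Ms4a6c knockout 2 and at 0 in the other 7 mice. The values of Vpreb1 may thus include reads of its copy.

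The factor EBF1 acts with Pax5 in B cells, and EBF proteins are also abundant in olfactory neurons, where the first of them was described as Olf-1. The upstream sequences of the B-lineage genes were therefore searched for the EBF-type palindrome TCCCNNGGGA and for the octamer ATGCAAAT, a B-cell promoter element, on both strands of the 250 bases before the RefSeq start. RefSeq sequences (GRCm38.p6) were at hand for 7 of the 9 members and for Vpreb2 and Vpreb3. The palindrome was found in Cd22 alone of these 9 genes, and in 0.788% of 27025 promoters. The octamer was found in Vpreb3 alone, and in 1.61% of promoters. A match describes the letters only. The motif is in capitals in the Cd22 stretch, chr7:30879043-30879102 on the minus strand, and in the Vpreb3 stretch, chr10:75948230-75948287 on the plus strand. The RefSeq starts used lie 1314 bases inside the GENCODE span of Cd22 and 5243 bases inside that of Vpreb3, so both stretches are upstream of the RefSeq start but within the annotated gene.
Cd22: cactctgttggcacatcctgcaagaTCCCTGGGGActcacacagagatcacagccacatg
Vpreb3: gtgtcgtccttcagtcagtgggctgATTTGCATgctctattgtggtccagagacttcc
Per kilobase of exon, Ebf1 was at 16.3 to 22.3 CPM in the 9 mice, above the 1.86 CPM that was the highest value of any member in any mouse.

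Libraries held 13954591 to 21987174 expected counts, and levels are given as CPM, counts scaled to the library size after TMM correction for library composition. In wild type 1 and Ms4a cluster knockout 2, Bpifb9b, a gene of nasal glands, took 10.4% and 10.2% of all counts, against at most 3.28% in the other 7 mice. All 10 olfactory sensory neuron markers were detected in every mouse, and their summed level was 11300 to 14300 CPM. Ms4a6c had 53.95 to 90.34 expected counts in the wild-type mice, 0 to 2.35 in the Ms4a6c knockouts and 0 in the cluster knockouts, as the labels state. In whole tissue, fewer cells of a type and less RNA per cell cannot be told apart.

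Ms4a1 was a rare transcript in the epithelium, at a level that few reads support. The wild-type libraries held 10, 10 and 14 expected counts of it, equal to 0.711, 0.555 and 0.796 CPM. The 3 Ms4a6c knockout mice had 13, 26 and 8 counts, equal to 0.533, 1.61 and 0.51 CPM. Ms4a6c knockout 2 stood above the other 5 mice that carry the gene. Its 26 counts have an exact Poisson 95% interval of 17 to 38.1, and the 8 counts of Ms4a6c knockout 3 one of 3.45 to 15.8. These intervals cover counting error only. The 3 cluster knockout mice had no count. A count of 0 allows up to 3 counts, which is 0.15 to 0.299 CPM in these libraries.

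The mature-stage genes differed from each other in abundance. Expected counts of Cd22 were 7.75, 13 and 12 in wild type, 12, 16 and 8 in Ms4a6c knockouts and 19, 7.8 and 16.74 in cluster knockouts. On the CPM scale Cd22 was 0.569 to 0.721 in wild type, 0.492 to 0.993 in the Ms4a6c knockout and 0.797 to 0.952 in the cluster knockout, so the cluster knockout mice lay above the wild-type mice. Cr2 had 1, 1 and 3 counts in wild type, 5, 1 and 5 in the Ms4a6c knockout and 6, 1 and 1 in the cluster knockout. With 24 counts in all 9 mice, Cr2 had the fewest counts of the 9 genes and its groups overlapped.

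The receptor chains, which are shared by precursor and mature cells, were the members with the most counts. Expected counts of Cd79a were 21, 10 and 11 in wild type, 22, 39 and 20 in Ms4a6c knockouts and 41, 7 and 19 in cluster knockouts. For Cd79b the counts were 21, 22 and 18 in wild type, 19, 43 and 20 in the Ms4a6c knockout, and 45, 10 and 15 in the cluster knockout. Both chains were highest in Ms4a6c knockout 2 and Ms4a cluster knockout 1, and the genotypes overlapped. Pax5 showed 10, 9 and 10 counts in the wild type, 19, 16 and 17 in Ms4a6c knockouts and 26, 4 and 8 in cluster knockouts. The 3 Ms4a6c knockout mice, at 0.779 to 1.08 CPM, lay above the wild-type mice, at 0.499 to 0.711 CPM.

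Transcripts of precursor-stage genes were present in every mouse, at a few counts each. Rag1, the recombinase subunit, was at 5, 2 and 5 expected counts in the wild type, 10, 11 and 7 in Ms4a6c knockouts and 24, 1 and 7 in cluster knockouts. Ms4a cluster knockout 1 was the highest of the 9 mice for Rag1, at 1.2 CPM, and Ms4a cluster knockout 2 the lowest, at 0.0997 CPM. Vpreb1 had 1, 3 and 6 counts in wild type, 6.75, 4 and 5 in the Ms4a6c knockout and 5, 2 and 3 in the cluster knockout. Igll1 had 1, 2 and 4 counts, 3, 7 and 5 counts, and 3, 2 and 1 counts in the same order. For Vpreb1 and Igll1 the genotypes overlapped, and a difference of a few counts was not detectable at this depth.

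**Figure D1:**
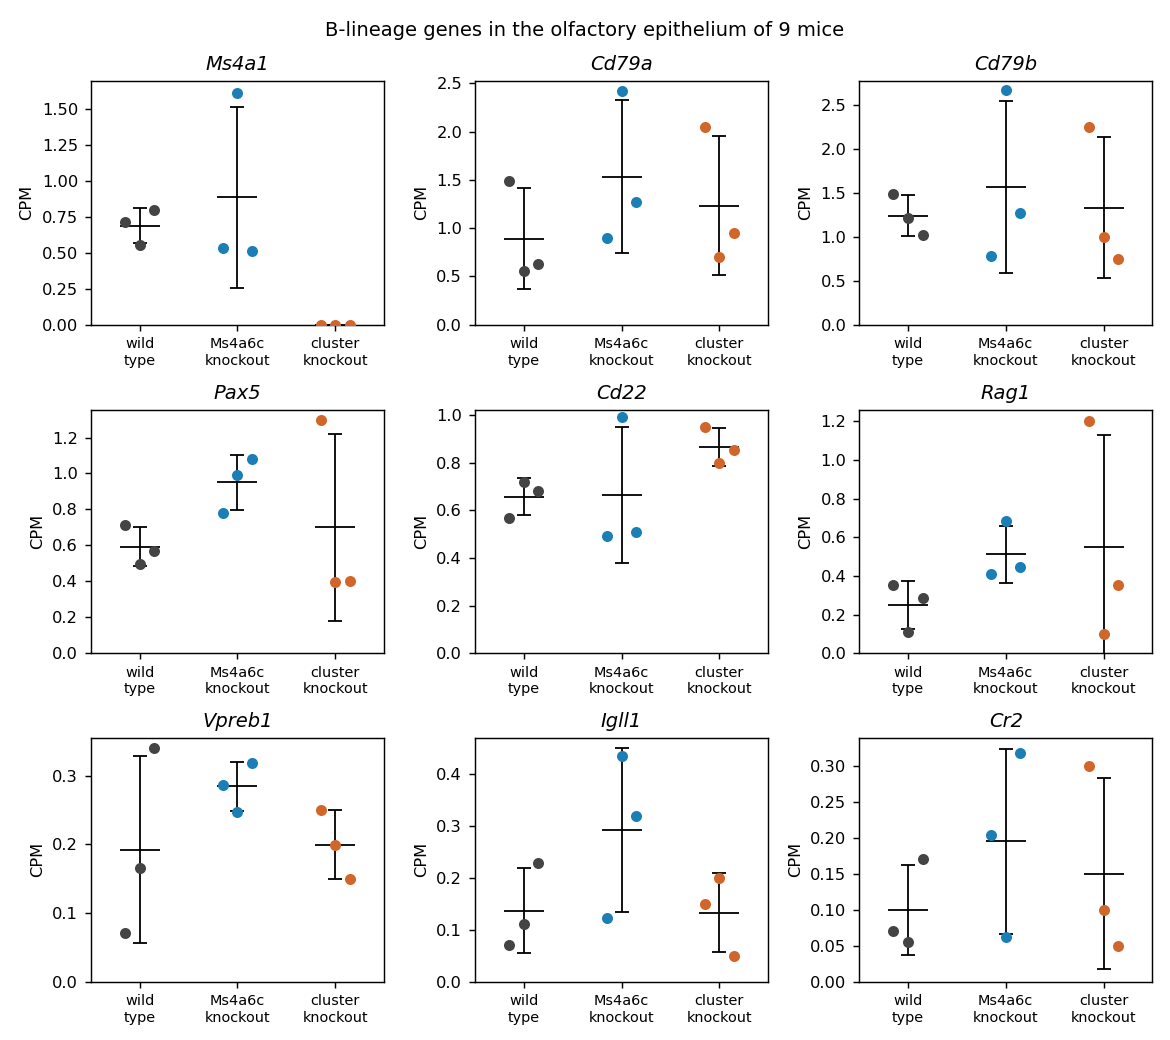
Level of each of the 9 genes (CPM, linear axis from 0) in 3 wild-type, 3 Ms4a6c knockout and 3 Ms4a cluster knockout mice. Points are mice, horizontal marks the mean and bars the SD (n = 3). Ms4a1 is at 0 in the cluster knockout, and Ms4a6c knockout 2 is the highest mouse for Ms4a1, Cd79a, Cd79b, Cd22 and the precursor gene Igll1.

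Set per kilobase of exon (union of annotated exons), the levels in the 6 mice that carry Ms4a1 fell into an order. Cd79b came first, at 0.985 ± 0.462 CPM per kilobase (SD, n = 6), and Cd79a followed at 0.831 ± 0.477. Vpreb1 had 0.199 ± 0.0856, Cd22 0.131 ± 0.037 and Ms4a1 0.127 ± 0.0679 CPM per kilobase. Igll1 (0.099 ± 0.065), Pax5 (0.0872 ± 0.026), Rag1 (0.0577 ± 0.0286) and Cr2 (0.0181 ± 0.0129) were lower. The ranges over mice of neighbours in this order overlapped at every step except from Cd79a to Vpreb1. Per kilobase, Cd22 was at 1.03 times and Cd79b at 7.76 times the level of Ms4a1.

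The Ms4a6c knockout asks what loss of 1 Ms4a gene does to the tissue with Ms4a1 still present. No B-lineage gene passed the test. Fold changes were above 0 for 8 of the 9 genes, with Cd22 the exception at a log2 fold change of -0.01 (SE 0.36). Ms4a1 differed by 0.35 (SE 0.54, adjusted p = 0.868 by edgeR's quasi-likelihood test). The precursor genes Rag1 and Igll1 had log2 fold changes of 1.03 (SE 0.76) and 0.98 (SE 0.73), Cr2 0.91 (SE 0.87), Cd79a 0.79 (SE 0.54), Pax5 0.67 (SE 0.48), Vpreb1 0.51 (SE 0.6) and Cd79b 0.32 (SE 0.51). The smallest adjusted p of the 9 was 0.651. Of 23225 genes tested, 0.435% were called in this comparison by edgeR, beside 0 of the 9 members, none of which had an unadjusted p under 0.05. All 3 knockout values lay above all 3 wild-type values for Pax5 and Rag1, 2 of the 8 members other than Ms4a1, against 9.71% of all genes. The median log2 fold change of those 8 members was 0.73, beside 0.0 over all genes. Without Ms4a6c knockout 2 the log2 fold change of Ms4a1 was -0.39 and that of Cd79b -0.3.

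The cluster knockout removes Ms4a1 itself, and the other 8 members show whether B-lineage RNA was altered beside it. Ms4a1 had no count in any of the 3 mice, at least 3.44-fold lower than the wild-type mean of 0.687 CPM, with 3 counts per library as the floor. The fitted log2 fold change of -6.59 (SE 1.13) gave an adjusted p of 0.574 by edgeR and, with 18 genes called, 0.0253 by DESeq2, and ranged from 0.0253 to 1 over 16 other fits. All 3 values lay below the wild-type values, as for 5.15% of genes. None of the other 8 members passed edgeR's test, whose smallest adjusted p among them was 0.971. Rag1 had a log2 fold change of 1.24 (SE 0.75), Cr2 0.61 (SE 0.9), Cd79a 0.54 (SE 0.55), Cd22 0.4 (SE 0.37), Pax5 0.3 (SE 0.49), Cd79b 0.13 (SE 0.52), Vpreb1 0.02 (SE 0.65) and Igll1 -0.16 (SE 0.81). Over all genes, edgeR called 0.0258% and DESeq2 0.0826%. Cd22 was the 1 member with all 3 knockout values above the wild-type values, a pattern found in 4.71% of genes. The value for Rag1 rested on Ms4a cluster knockout 1, since without it the log2 fold change was 0.02.

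Between the knockouts, Ms4a1 was the 1 member of 9 called. It was at least 4.43-fold lower in the cluster knockout than the Ms4a6c knockout mean of 0.885 CPM, and all 3 values lay below, as for 8.09% of genes. The log2 fold change was -6.93 (SE 1.1) with an adjusted p of 0.04995 by edgeR, which called 0.443% of genes. DESeq2 gave 0.00089 and called 1.3% of genes. The adjusted p of Ms4a1 in this comparison ranged from 0.00089 to 0.185 over 16 other fits, and leaving out any 1 of the 9 mice put it above the threshold. The remaining 8 members lay between -1.14 for Igll1 and 0.4 for Cd22 on the log2 scale.

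**Figure D2:**
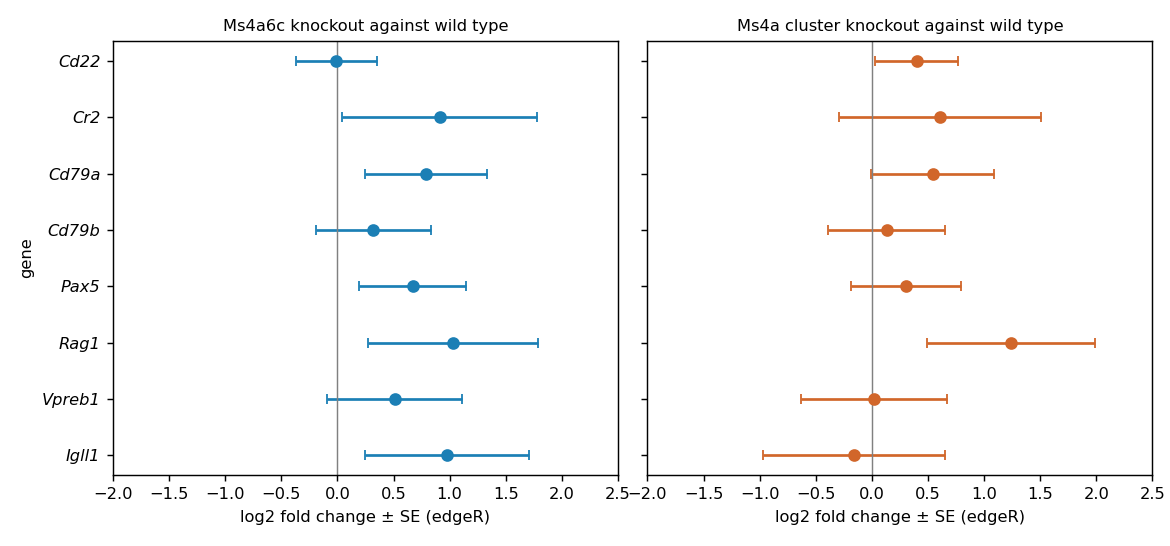
Log2 fold change with its SE (edgeR, 9 mice in 1 model) of the 8 members other than Ms4a1 in each knockout against wild type. The values run from -0.01 (Cd22) to 1.03 (Rag1) in the Ms4a6c knockout and from -0.16 (Igll1) to 1.24 (Rag1) in the cluster knockout, and 0 of 8 passed the test in either.

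Ms4a1 was next compared with each other member over the 6 mice that carry it, on the scale log2(CPM + 0.1). Its level went most closely with Cd22 and Cd79b, and least with Vpreb1 and Cr2. Pearson's r with Cd22 was 0.86 (two-sided exact permutation p = 0.025) and Spearman's rho 0.77 (exact permutation p = 0.103). With Cd79b, r was 0.82 (exact permutation p = 0.0667) and rho 0.43 (exact permutation p = 0.419). With Cd79a, r was 0.65 (exact permutation p = 0.158) and rho 0.31 (exact permutation p = 0.564). After Benjamini-Hochberg adjustment over 23224 genes, the adjusted p was 1 for each of the 8 members. No gene was called (0.0%), and 674 genes had an unadjusted permutation p under 0.05.

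The precursor genes gave no common pattern with Ms4a1. Igll1 had r = 0.58 (exact permutation p = 0.235; rho 0.2, exact permutation p = 0.714) and Rag1 r = 0.56 (exact permutation p = 0.267; rho 0.03, exact permutation p = 1). For Vpreb1, r was 0.01 (exact permutation p = 0.981) and rho -0.14 (exact permutation p = 0.803). Pax5 had r = 0.26 (exact permutation p = 0.664) and rho -0.26 (exact permutation p = 0.658). Cr2, a gene of mature cells, had the lowest value, r = -0.51 (exact permutation p = 0.301) and rho -0.6 (exact permutation p = 0.242). The 2 mature-stage members thus lay at opposite ends of the order.

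The relations with Cd22, Cd79b and Cd79a rested in large part on Ms4a6c knockout 2. Leaving out the 2 mice farthest from the median of Ms4a1, Ms4a6c knockout 2 and wild type 3, took r with Cd22 to 0.19, with Cd79b to 0.57 and with Cd79a to 0.44. It took r with Igll1 to -0.74, with Rag1 to -0.02, with Pax5 to -0.32 and with Vpreb1 to -0.96, over 4 mice. Without Ms4a6c knockout 2 alone, r was 0.48 with Cd22, 0.19 with Cd79b and -0.1 with Cd79a. Within genotypes, as deviations from the genotype mean and with Ms4a6c knockout 2 included, r was 0.89 with Cd22 and 0.82 with Cd79b. The same mouse had 1960 CPM of summed erythroid transcripts, against 673 to 2390 CPM in the other 5 mice, and the part of blood in the relations was not tested.

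**Figure D3:**
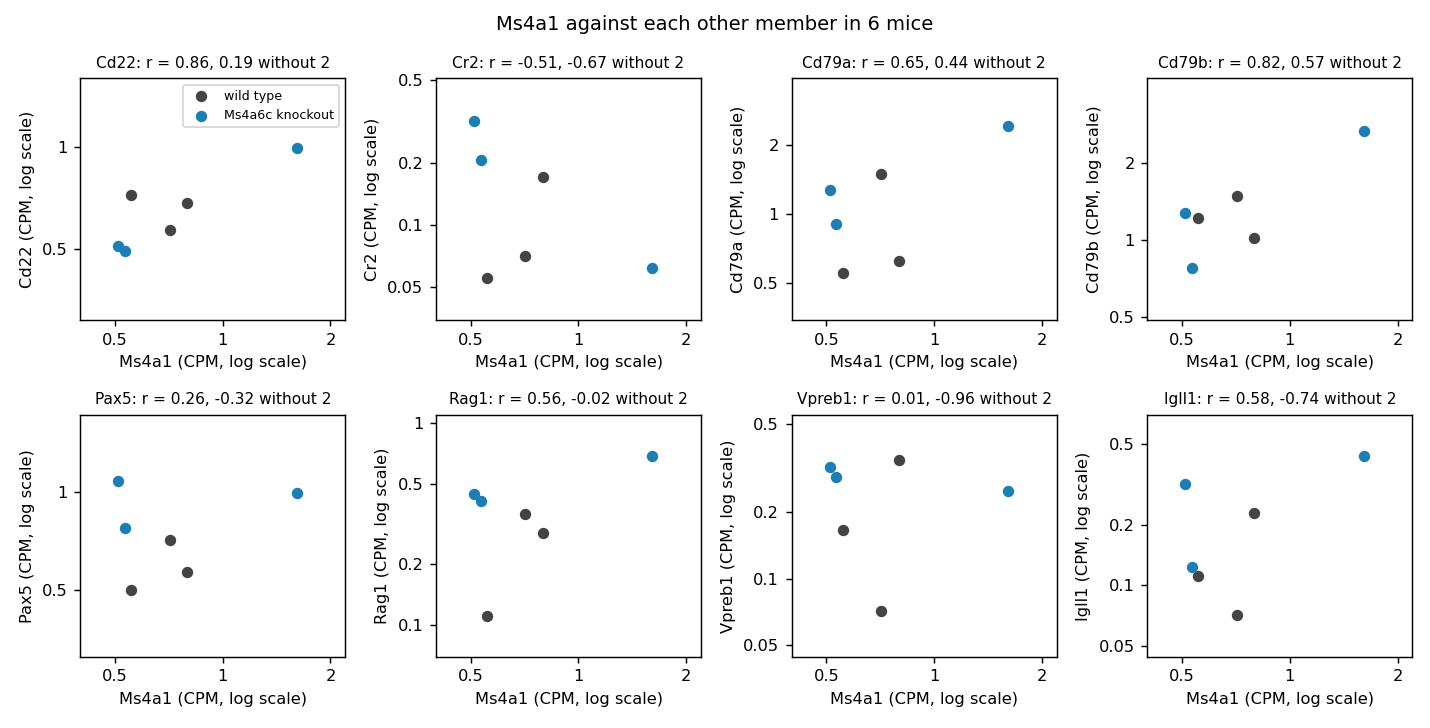
Level of each other member (y axis, CPM, log scale) against Ms4a1 (x axis, CPM, log scale) in 3 wild-type and 3 Ms4a6c knockout mice, with Pearson's r over 6 mice and without the 2 mice farthest from the Ms4a1 median. The point at the right of each panel is Ms4a6c knockout 2, at 1.61 CPM of Ms4a1.

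Among other mature B-cell genes, Ighd, which encodes the IgD heavy chain, followed Ms4a1 more closely than any member did. Ighd was at 5, 6 and 6 expected counts in the wild type and 8, 10 and 5 in Ms4a6c knockouts. Over these 6 mice r was 0.96 (exact permutation p = 0.00972, adjusted p = 1) and rho 0.94 (exact permutation p = 0.0167), and r was 0.98 over the 4 mice left without the 2 farthest. Ighd ranked 11 of 23224 genes by r. Its level was 0.62 CPM in Ms4a6c knockout 2 and 0.319 to 0.355 CPM in the other mice of the 6. The 4 mice left thus differed little in Ighd, at 5 to 8 counts each. Cd40, a receptor for T-cell help, had r = 0.82 (exact permutation p = 0.0306, adjusted p = 1), which became -0.4 without the 2 mice. Over the 14 mature B genes the median r with Ms4a1 was 0.41 and 12 were above 0. The median was 0.26 over 10 pan-B genes, 0.23 over the 6 precursor genes tested and 0.001 over all genes.

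Lists of other cells gave medians on either side of these. The median r with Ms4a1 was -0.04 over 11 plasma cell genes, -0.21 over 10 T-cell genes, 0.16 over 10 granulocyte precursor genes and 0.26 over 10 erythroid genes, all 10 of which were above 0. It was 0.29 over 6 genes of sustentacular cells, the supporting cells of the epithelium, 5 of which were above 0. The sustentacular median was thus above those of the pan-B and precursor B lists, and the erythroid median was alike. The median was 0.05 over 10 olfactory sensory neuron genes, 5 of which were above 0. It was 0.04 over 22 B-cell receptor signalling genes and -0.08 over 10 macrophage genes. Nasal gland (7) and EBF (4) genes gave -0.12 and -0.14. No list held a gene called. The 5 genes of at least 0.5 CPM that were most like Ms4a1 were Bbs10 (r = 0.98), Pla2g4a (0.98), Ppfibp2 (0.96), Rsf1 (0.96) and the odorant receptor gene Olfr1122 (0.96) over 6 mice. Each had an adjusted p of 1, and none is in a B-lineage list.

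The members other than Ms4a1 were then compared over all 9 mice, to see whether precursor and mature genes varied together. Cd79a went with the precursor gene Rag1 and with the lineage factor Pax5, not with Vpreb1. Pearson's r of Cd79a was 0.85 with Rag1 (two-sided exact permutation p = 0.00319; rho 0.85, exact permutation p = 0.00607), and 0.73 without Ms4a cluster knockout 1 and Ms4a6c knockout 2, the 2 mice farthest from the Cd79a median. It was 0.8 with Cd79b (exact permutation p = 0.0107; rho 0.67, exact permutation p = 0.0589) and 0.78 with Pax5 (exact permutation p = 0.017; rho 0.68, exact permutation p = 0.0503), and 0.33 and 0.6 without those mice. With Cd22 it was 0.33 (exact permutation p = 0.378; rho 0.38, exact permutation p = 0.312), with Igll1 0.33 (exact permutation p = 0.388; rho 0.23, exact permutation p = 0.552), with Cr2 0.18 (exact permutation p = 0.633; rho 0.17, exact permutation p = 0.678) and with Vpreb1 -0.05 (exact permutation p = 0.911; rho -0.1, exact permutation p = 0.81). The adjusted p over all genes was at least 0.912 for each of these 7 members, with 0.0% of genes called and 1218 genes at an unadjusted p under 0.05.

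Among the members, Vpreb1 had its highest r with Igll1, its partner in the surrogate light chain, and with Cr2. With Igll1, r was 0.67 (exact permutation p = 0.0471; rho 0.7, exact permutation p = 0.0433), and 0.39 without Ms4a cluster knockout 3 and wild type 1. With Cr2, r was 0.67 (exact permutation p = 0.0427; rho 0.75, exact permutation p = 0.0255), and 0.68 without those mice. With Rag1, r was 0.26 (exact permutation p = 0.506; rho 0.28, exact permutation p = 0.463), and with Cd22 it was -0.05 (exact permutation p = 0.904; rho -0.28, exact permutation p = 0.463). The adjusted p of Igll1 and Cr2 was 0.721, with 0.0% of genes called and 1576 at an unadjusted p under 0.05. By r with Vpreb1, Igll1 ranked 669 and Cr2 648 of 23224 genes. The median r with Vpreb1 was 0.44 over the 5 other precursor genes tested and 0.08 over 14 mature B genes. It was 0.43 over 6 sustentacular, 0.37 over 10 olfactory sensory neuron and 0.33 over 10 erythroid genes. Stoml3 of the neuron list had r = 0.77 and Cbr2 of the sustentacular list 0.69. For Cd22 as the reference, 0.0% of genes were called and 729 had an unadjusted p under 0.05. The 5 genes of at least 0.5 CPM most like Vpreb1 were Zfp410 (r = 0.94), Rps18-ps5 (0.94), Olfr1130 (0.93), Gm49741 (0.93) and Zfp114 (0.92). None of these is in a B-lineage list. Vpreb1, Igll1 and Cr2 had at most 6.75, 7 and 6 expected counts in a mouse. Nasal gland genes moved the other way from Vpreb1: the median r over 7 of them was -0.75, with 1 above 0, and the lowest was -0.8 for Lcn11 (exact permutation p = 0.00825, adjusted p = 0.721; rho -0.8, exact permutation p = 0.0138). Without Ms4a cluster knockout 3 and wild type 1, r of Vpreb1 with the gland genes ran from -0.64 (Lcn11) to -0.28 (Bpifb9b), and was 0.48 for Bpifb4. With both gland-rich mice omitted, r of Vpreb1 was 0.65 with Igll1 and 0.74 with Cr2.

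Over all 28 pairs of the 8 members, r was above 0 in 24, with a median of 0.35 and a range of -0.35 to 0.85. The pairs share mice and are given as a description.

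**Figure D4:**
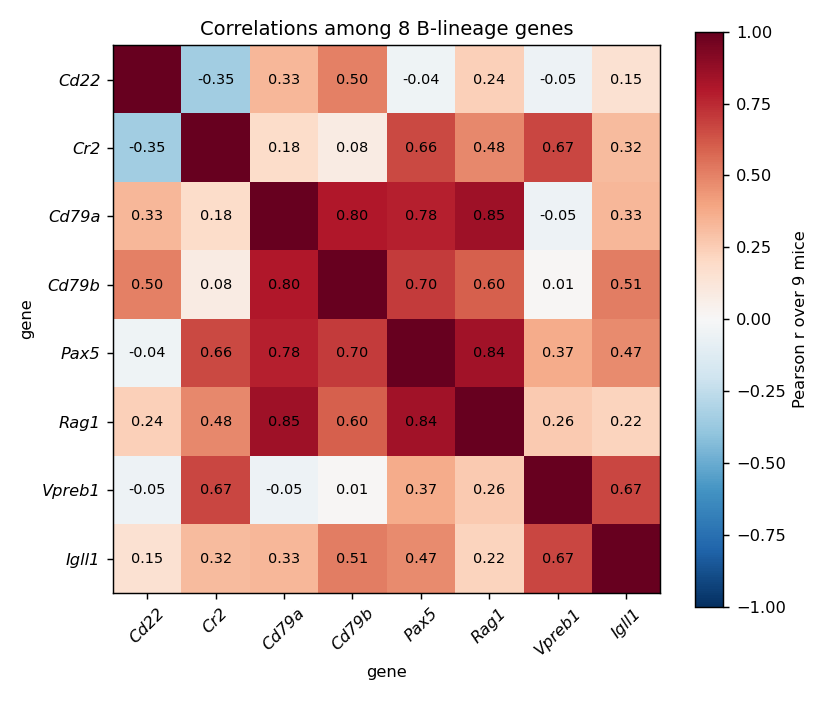
Pearson's r over 9 mice between each pair of the 8 members other than Ms4a1, on log2(CPM + 0.1), with blue below 0 and red above. Values among Cd79a, Cd79b, Pax5 and Rag1 run from 0.6 to 0.85, and Cd22 with Cr2 is the lowest (-0.35).

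Summed by stage, the members gave the same high mice. The precursor members (Rag1, Vpreb1 and Igll1) summed to 0.388 to 0.853 CPM in wild-type mice, 0.82 to 1.36 in Ms4a6c knockouts and 0.498 to 1.6 in cluster knockouts. The mature members (Cd22 and Cr2) summed to 0.64 to 0.853, 0.697 to 1.05 and 0.897 to 1.25 CPM. Ms4a6c knockout 2 and Ms4a cluster knockout 1 were the highest mice in both sums and in the sum of Cd79a, Cd79b and Pax5, at 6.08 and 5.61 CPM against 2.09 to 3.7 CPM in the other 7 mice. The precursor sum rests on 5 to 32 expected counts in a mouse and the mature sum on 8.75 to 25. The sum of Cd79a, Cd79b and Pax5 rests on 21 to 112.

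The wider lists, of 7 precursor and 14 mature B genes, held members far from the level of Ms4a1. In the precursor list, Vpreb3, a relative of the surrogate light chain genes, had 120 to 358 expected counts per mouse, whereas Rag2, the partner of Rag1, had 0 to 4 and Dntt, the polymerase that adds bases at immunoglobulin joins, 0 to 6. Vpreb3 was at 16.5 CPM per kilobase, against 0.188 for Vpreb1 and 0.0302 for Vpreb2. Rag2 was at 0 in 4 of 9 mice. Vpreb3 was higher in all 3 Ms4a6c knockout mice than in wild type, with a log2 fold change of 0.43 (SE 0.14, adjusted p = 0.304 by edgeR), which did not pass. Among the mature genes, Ighd had a log2 fold change of 1.04 (SE 0.42, adjusted p = 0.968) in the cluster knockout. None of the 14 mature, 10 pan-B, 6 precursor, 11 plasma cell and 22 B-cell receptor signalling genes tested was called by edgeR in either knockout against wild type, where 0.435% (Ms4a6c) and 0.0258% (cluster) of all genes were called. At such shares lists of this size would hold few calls. DESeq2 called 1 of these genes, Dapp1, an adaptor of B-cell receptor signalling, in the Ms4a6c knockout, where it called 1.95% of all genes and gave an adjusted p for 4 of the 9 members and 1 of the precursor genes. Their median log2 fold changes were 0.27, 0.34, 0.75, 0.57 and 0.05 in the Ms4a6c knockout, and 0.4, 0.24, 0.12, -0.19 and 0.1 in the cluster knockout.

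Pan-B genes also spread widely in level. Per kilobase of exon, Pax5 had a mean of 0.0845 CPM over the 9 mice, while Blnk, an adaptor of the B-cell receptor, had 4.51 and Ighm, the IgM heavy chain, 7.72 CPM. Spib, a transcription factor of the B lineage, followed Cd79a with r = 0.91 over 9 mice (exact permutation p = 0.00065, adjusted p = 0.859; rho 0.93, exact permutation p = 0.00075). The 5 genes of at least 0.5 CPM most like Cd79a had a higher r than Spib, and none is in a B-lineage list. They were Olfr322 (r = 0.95), Polm (0.94), Dmac2 (0.93), Gm13563 (0.93) and Ppp1r37 (0.92), each with an adjusted p of 0.859. Blnk had r = 0.14 with Cd79a and Ighm 0.35.

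Marrow and blood genes moved in part with the B-lineage genes, and their part in the results was not tested. Erythroid genes summed to 673 to 924 CPM in wild-type mice, 822 to 2390 in Ms4a6c knockouts and 809 to 2070 in cluster knockouts, and 10 of 10 had positive log2 fold changes in the Ms4a6c knockout (median 1.46). All 10 had an unadjusted p under 0.05 in that comparison, as did 10.5% of all genes, and edgeR called 0 of 10 beside 0.435% of all genes. The erythroid sum was 1960 and 2390 CPM in Ms4a6c knockout 2 and 3. Ms4a6c knockout 1, at 822 CPM, lay within the wild-type range. All 3 knockout values lay above all 3 wild-type values for 1 of the 10 genes, against 9.71% of all genes. Granulocyte precursor genes summed to 152 to 392, 125 to 231 and 240 to 661 CPM, and 9 of 10 had positive log2 fold changes in the Ms4a6c knockout (median 1.12). Of these, 5 had an unadjusted p under 0.05 and 0 were called by edgeR, whereas DESeq2 called Mpo. The sum and the median of this list differ in direction. Ltf alone was 129 to 355 CPM in wild type, 95 to 135 in the Ms4a6c knockout and 169 to 631 in the cluster knockout. It made up most of the sum in wild type and the cluster knockout. Mpo, the granulocyte peroxidase, had 42 to 70 expected counts in wild type, 81, 201 and 269 in the Ms4a6c knockout and 150, 50 and 90.96 in the cluster knockout, so it was high in Ms4a6c knockout 2 and 3. T-cell genes summed to 4.53 to 7.16 CPM over all mice. The median r with Cd79a over 9 mice was 0.66 for the 9 other pan-B genes, 0.6 for the granulocyte precursor list, 0.52 for the plasma cell list, 0.4 for the 6 precursor B genes and 0.4 for the mature B genes. It was 0.38 for the sustentacular, 0.32 for the erythroid and 0.29 for the olfactory sensory neuron list. The EBF, B-cell receptor signalling and T-cell lists gave 0.2, 0.17 and 0.09. For the nasal gland and macrophage lists it was -0.24 and -0.27.

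**Figure D5:**
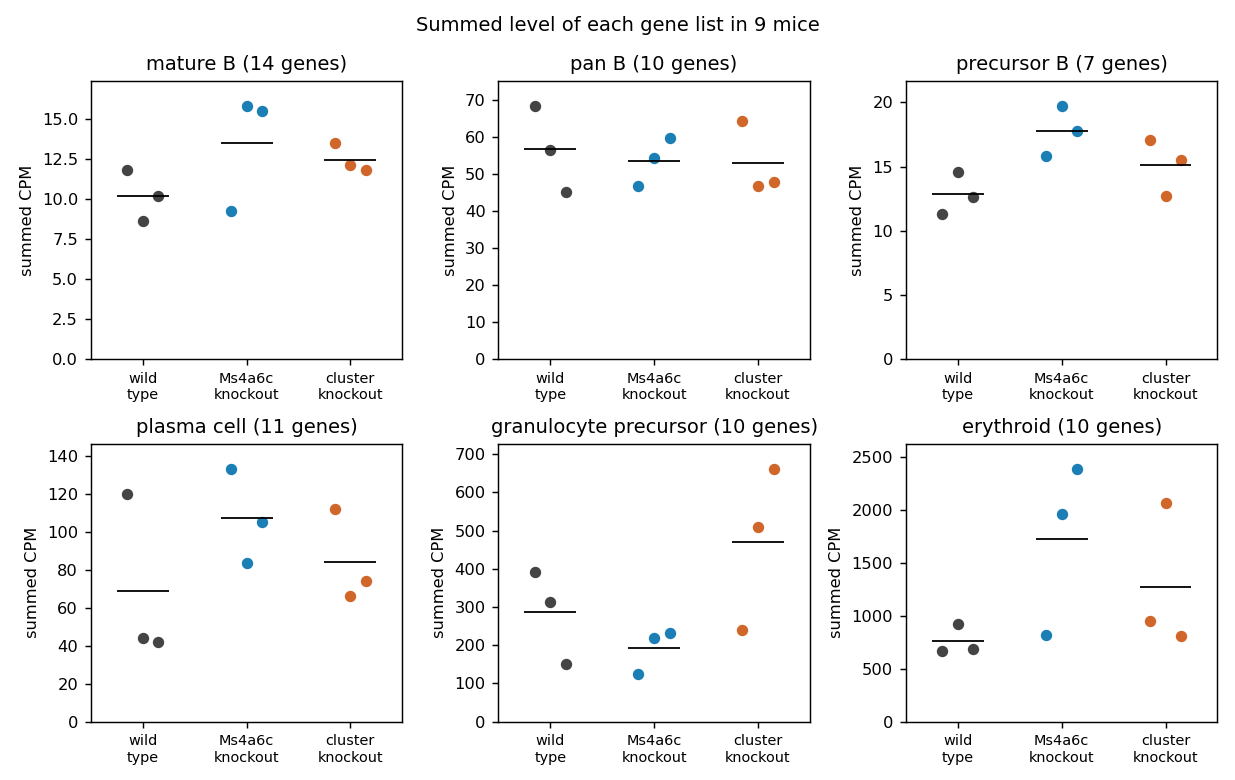
Summed level (CPM, linear axis from 0) of 6 gene lists in 3 wild-type, 3 Ms4a6c knockout and 3 Ms4a cluster knockout mice. Points are mice and lines the mean of each genotype. The precursor B sum is 11.3 to 14.6 CPM in wild type and 15.8 to 19.7 CPM in the Ms4a6c knockout, and most of it is Vpreb3. In wild type and the cluster knockout, most of the granulocyte precursor sum is Ltf.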

How the data were processed

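Olfactory epithelium of 9 mice was measured by poly-A RNA-seq. Per the study's methods, directional libraries were sequenced as paired ends, aligned with STAR 2.6.1 and quantified with RSEM 1.3.1 on GENCODE M25 (mm10), and the authors deposited expected counts per gene without normalization. The authors' own comparison used DESeq2. Expected counts were rounded here, and a gene needed a sum of 10 counts across the libraries to enter the test (23225 genes) by edgeR 4.0.16 (quasi-likelihood test, TMM, 9 mice in 1 model, Benjamini-Hochberg over all tested genes, threshold 0.05). DESeq2 1.42.0, other filters and scalings, a replicate block and leaving out each mouse were alternatives. Correlations used log2(TMM CPM + 0.1) with all 720 (6 mice) or 362880 (9 mice) pairings of the mice. Coordinates and exon lengths came from GENCODE M21, which matched 99.6% of symbols. The named genes were the 9 members, the genes of 13 lists, and the 5 genes of at least 0.5 CPM with the highest r. The members and lists were chosen with earlier results of these data known. The scripts were tested on simulated data. Poisson intervals are exact, at 95%.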

Additional observations from a re-analysis of the deposited data

Results flagged for a closer look

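Ms4a1 differed between the knockouts, the 1 member for which the test of that difference passed its threshold: the log2 fold change, cluster knockout against Ms4a6c knockout, was -6.93 with an adjusted p of 0.04995 (edgeR), and all 3 cluster knockout mice were at 0 while the Ms4a6c knockout mice had 8 to 26 counts. The gene lies in the deleted cluster.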

How the results depend on the processing

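The number of members called was 0 in the Ms4a6c comparison under every alternative. Between the knockouts it was 1 in the main fit, without a filter and with DESeq2, and 0 with DESeq2 size factors, filterByExpr, only the 2 genotypes compared, an adjusted p under 0.01, the gland-rich mice omitted (chosen after seeing the data) and each mouse left out (0 to 0). Against wild type the cluster knockout had 1 with DESeq2 and 0 otherwise.

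With the replicate block the count between the knockouts was 0 and the log2 fold change of Ms4a1 was -6.76. The numbers did not pair the mice: same-number deviations correlated at -0.577 to 0.142 over 16570 genes. All genes called against wild type were 6 (cluster) and 101 (Ms4a6c), but 2 with the block for the cluster, 18 and 345 with DESeq2, 182 without a filter for Ms4a6c, 3 and 58 under 0.01, 350 with the gland-rich mice omitted for Ms4a6c, and 3 to 7 and 59 to 159 with a mouse left out. Between the knockouts 103 became 155 without a filter, 271 with DESeq2, 60 under 0.01 and 66 to 121 with a mouse left out.

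Directions that turned were of values not called. Leaving out each mouse gave, for the cluster knockout against wild type, -0.05 to 1.1 for Cd79a, -0.53 to 0.44 for Cd79b, -0.55 to 0.61 for Pax5, -0.33 to 0.67 for Vpreb1, -0.45 to 0.39 for Igll1 and -0.51 to 1.23 for Cr2. For the Ms4a6c knockout it gave -0.39 to 0.63 for Ms4a1, -0.3 to 0.67 for Cd79b and -0.4 to 0.19 for Cd22. Omitting the gland-rich mice gave Vpreb1 -0.33 in the cluster knockout.

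For r with Ms4a1, leaving out each mouse gave -0.1 to 0.79 for Cd79a, -0.49 to 0.68 for Pax5, -0.06 to 0.71 for Rag1, -0.21 to 0.17 for Vpreb1 and -0.16 to 0.87 for Igll1. Without the 2 farthest mice r was -0.32 for Pax5, -0.02 for Rag1, -0.96 for Vpreb1 and -0.74 for Igll1. Vpreb1 had -0.08 as deviations from the genotype mean and -0.01 without the gland-rich mice. For r with Cd79a, Cd22 had -0.54 and Igll1 -0.14 without the 2 farthest mice, and Vpreb1 had 0.28 by plain library size and 0.14 without the gland-rich mice. A mouse left out gave -0.16 to 0.21 for Vpreb1, -0.08 to 0.47 for Igll1 and -0.08 to 0.48 for Cr2. For r of Vpreb1 with Cd22, plain library size gave 0.43, deviations from the genotype mean 0.08 and a mouse left out -0.48 to 0.15. The causes were not tested. With 8 to 26 counts of Ms4a1 per mouse, depth limits these relations.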
